A study of Mus musculus with 7 samples.

Results

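Axon guidance ligands and receptors were followed across 7 mouse RNA-seq libraries, from 6 sorted gliomas (3 with the PDGF-B label and 3 with the EGFRvIII label) and 1 neural progenitor culture. Members were taken by symbol: the semaphorins, plexins, neuropilins, ephrins, Eph receptors, Slit and Robo genes, plus Ntn1, Ntn4, Dcc and Unc5a to Unc5d. The annotation holds 67 such genes, and 60 of them were among the 17422 genes of the deposited tables. Epha6, Epha7, Epha8, Epha10, Robo3, Sema3g and Slit3 were not analysed here. The 60 genes fall into 12 families: 6 secreted class 3 semaphorins, 13 membrane semaphorins, 9 plexins, 2 neuropilins, 5 ephrin-A and 3 ephrin-B ligands, 5 EphA and 5 EphB receptors, 2 Slit ligands, 3 Robo receptors, 2 netrins and 5 DCC and UNC5 receptors.

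All libraries began with neural precursors of embryonic day 14 from mice of the BALB/c strain, infected in culture with a retrovirus that also carries the red fluorescent protein DsRed. For the group labelled PDGF-B the precursors were wild type and the vector encoded PDGF-B, a growth factor that activates Pdgfra and Pdgfrb. For the group labelled EGFRvIII the precursors were Ink/Arf -/- and the vector encoded EGFRvIII, an EGF receptor that lacks part of its outer domain and signals without ligand, so oncogene and genotype differ together. After 10 days in culture, 20000 cells were injected into the brain of each adult BALB/c host, and tumour cells were sorted for DsRed when the first symptoms appeared. The culture is 1 library of wild-type precursors given PDGF-B and sorted for DsRed without grafting. The labels call the gliomas of each group biological replicates.

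Guidance molecules steer growing axons and migrating cells by attraction or repulsion. Semaphorins signal through plexins, and most secreted class 3 semaphorins need a neuropilin as the binding partner. Ephrins are tethered to the membrane and signal to Eph receptors on the neighbouring cell, and can also signal back into their own cell. Slits repel through Robo receptors, and netrin-1 attracts through DCC or repels through UNC5 receptors. In the brain, cells of the oligodendrocyte lineage, astrocytes, microglia and vessels use many of the same molecules, and glioma cells are known to do so during invasion.

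The genes that check the labels went against them. Egfr stood at 4952, 5109 and 3594 CPM (read counts scaled to library size) with the PDGF-B label, and at 41.2, 26.9 and 25.6 CPM with the EGFRvIII label. Pdgfb stood at 1.95, 2.97 and 4.88 CPM in the first group and at 386, 284 and 277 CPM in the second, beside 245 CPM in the culture. Cdkn2a, the gene of the Ink/Arf locus, stood at 3.52, 2.94 and 4.99 CPM against 22.7, 26.1 and 11.1 CPM. Every direction below is therefore tied to the label only. Replicate 3 of the gliomas labelled PDGF-B stood apart from its group. In a principal component analysis of the 6 gliomas, component 1 held 55.7% of the variance and placed it at -5.77, its group mates at -89.3 and -88.7, and the other group between 37.2 and 102. Depth ranged from 32513754 to 39062584 recovered reads per library. The summed level of 20 microglia and macrophage markers was 630, 863 and 2521 CPM with the PDGF-B label and 9627, 20301 and 9051 CPM with the EGFRvIII label. It was 22.8 CPM in the culture, where Trem2, C1qb, Tyrobp and Fcrls were at 0. In the comparison of the glioma groups 19 of these 20 markers fell with the PDGF-B label and none rose. The most abundant of them were Lyz2, at 22.4, 19.2 and 613 CPM against 2358, 1785 and 821 CPM, and C1qa, at 57.6, 81.6 and 219 CPM against 827, 2976 and 975 CPM. In such bulk libraries, fewer cells of a type and less RNA per cell cannot be told apart.

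Of the 60 guidance genes, 47 reached 1 CPM in all 6 gliomas, 32 reached 10 CPM and 2 reached 100 CPM in all of them. Epha1 alone stayed below 1 CPM in all 7 libraries. To set different genes side by side, levels were divided by kilobases (kb) of exon, with all annotated exons of a gene merged. That length can exceed the length of a single transcript, so the order is approximate. The highest mean over the 6 gliomas belonged to Sema3d at 42.2 CPM per kb. It was followed by Ntn1 at 32.5, Plxnb2 at 27.3, Sema6a at 18.4, Plxnb3 at 18.3 and Sema6d at 16.1 CPM per kb. Sema3d led with the PDGF-B label, at 63.2 CPM per kb, while with the EGFRvIII label Plxnb2 led at 34.1 and Sema3d was next at 21.3 CPM per kb. The order differed in the culture, where Plxnb2 led at 31.3 CPM per kb, followed by Sema6d at 28.7, Sema6a at 20.7, Plxna1 at 18.8 and Plxnb1 at 18.3 CPM per kb. Sema3d stood at 0.626 CPM per kb there, rank 49 of 60. Among the genes that reached 1 CPM in some library, Robo4, the Robo gene of vessels, was the lowest in the culture at 0.0218 CPM per kb, from 4 reads.

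**Figure D1:**
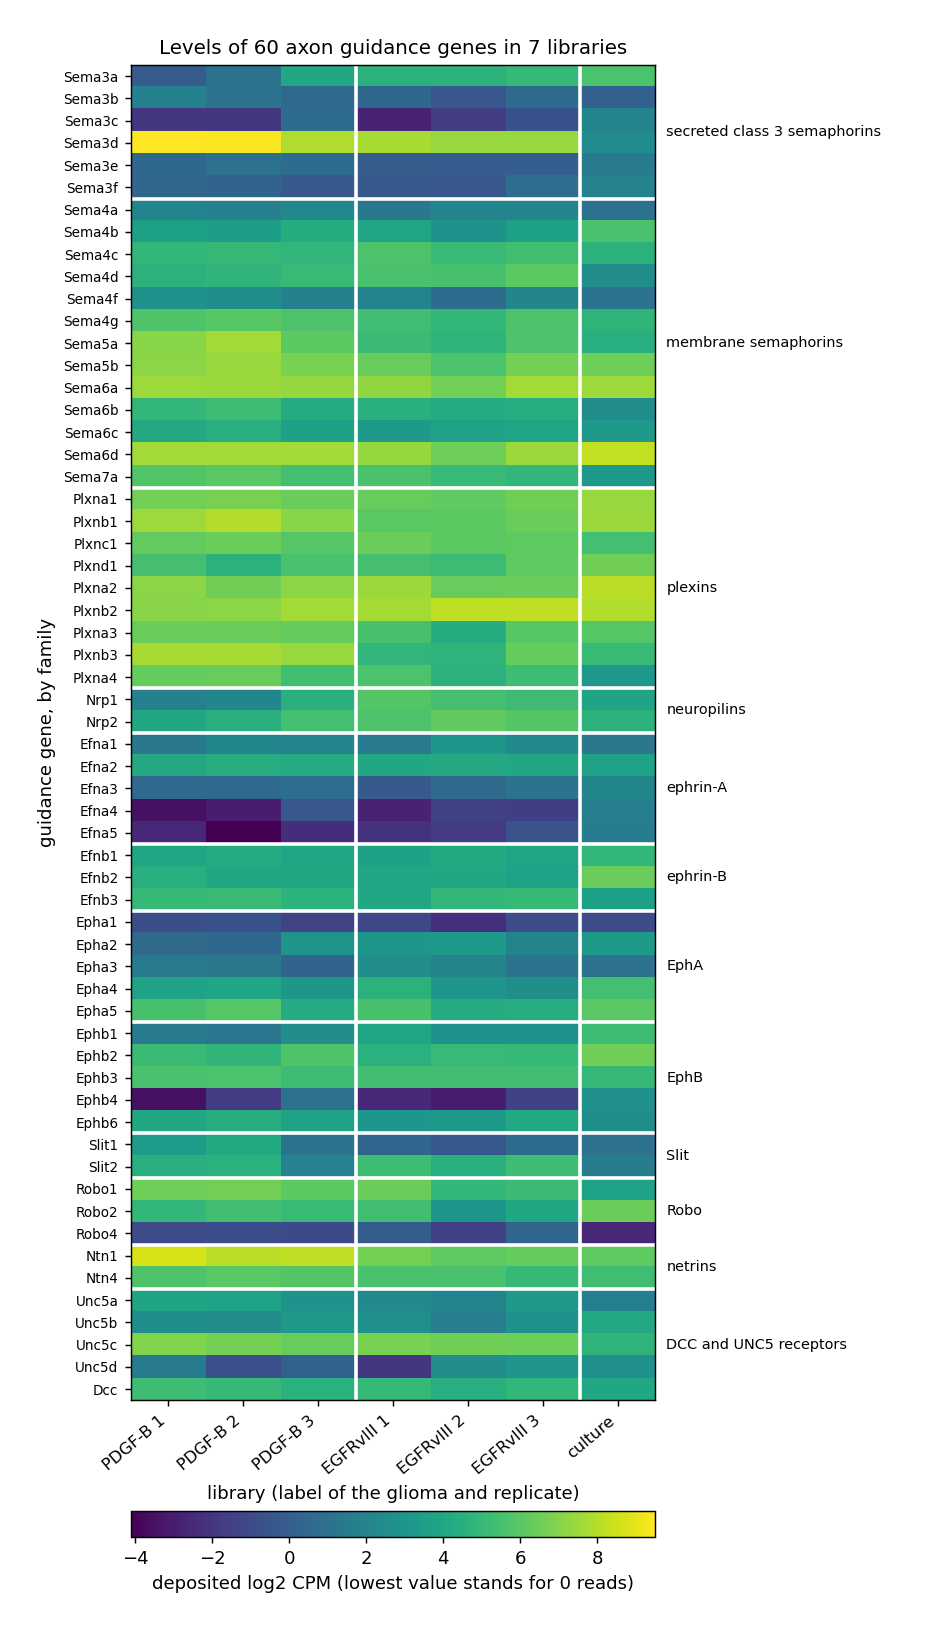
Deposited log2 CPM (colour) of the 60 guidance genes (rows, grouped by family) in the 7 libraries (columns, labelled by group and replicate). Sema3d and Ntn1 are the brightest rows in the gliomas labelled PDGF-B, and Sema3d is dark in the culture, at 5.38 CPM.

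The first comparison asks how the guidance genes differ between the gliomas of the 2 labels. Netrin-1 and the plexins B3 and B1 rose with the PDGF-B label, from 2.54-fold to 4.91-fold, and no guidance gene fell past the test. The call rule was a limma adjusted p (Benjamini-Hochberg over all genes) of at most 0.05, and 3 of 60 members met it, or 5.00%, beside 3.35% of all 17422 genes. The error given after a log2 fold change is its standard error (SE). All 3 were higher, beside 0.717% of all genes, and 0 were lower, beside 2.63% of all genes. At an unadjusted p under 0.05, limma marked 15 of the 60, or 25.0%, beside 16.7% of all genes. The median log2 fold change was 0.29 over the members, with 44 above 0 and 16 below, and -0.00 over all genes. In 21 members, or 35.0%, the values of the glioma groups did not overlap, beside 22.9% of all genes. In 13 of these the gliomas labelled PDGF-B were higher, beside 10.3% of all genes, and in 8 lower, beside 12.6%. Markers of oligodendrocyte precursors moved with the same label: the sum of 15 of them was 17116, 24489 and 13095 CPM with the PDGF-B label and 12591, 10412 and 10890 CPM with the EGFRvIII label, without overlap. Of the 15, 3 rose with the PDGF-B label and 0 fell, the median log2 fold change was 0.72, and none was at 0 in any library. The sums of myelinating oligodendrocyte markers (867 to 1076 against 462 to 648 CPM) and astrocyte markers (1904 to 2489 against 1425 to 1548 CPM) were also higher without overlap. The median log2 fold change was 0.55 over the 11 myelinating markers but -0.21 over the 10 astrocyte markers, so the astrocyte sum does not describe most of its genes. The part of these cell types in the guidance genes' values was not tested.

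Single gliomas decide how many members are called. Without PDGF-B replicate 3, limma called 11 members: Sema3d, Sema5a, Slit1, Ntn1, Plxnb1 and Plxnb3 were higher, and Sema3a, Nrp1, Nrp2, Epha2 and Ephb1 were lower. Calls over all genes rose in the same fit, from 583 to 1282. Without PDGF-B replicate 1 or 2, or without EGFRvIII replicate 1 or 2, it called 0, and without EGFRvIII replicate 3 only Plxnb3, at an adjusted p of 0.0205. In these 5 fits limma called 4 to 21 of all genes. PDGF-B replicate 3 was set apart by these same data, so the fit without it gives no independent support. Sema3d, Sema5a, Slit1, Sema3a, Nrp1, Nrp2, Epha2 and Ephb1 were called in that fit alone. Over the 6 fits without a glioma, their highest limma adjusted p-values ran from 0.264 for Nrp1 to 0.752 for Epha2. Over the same 6 fits the log2 fold changes kept to 1.80 to 2.11 for Ntn1, 2.02 to 2.79 for Plxnb3 and 1.14 to 1.55 for Plxnb1. Their adjusted p-values ran from 0.00662 to 0.0905, from 0.0205 to 0.135 and from 0.0118 to 0.135.

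Netrins are secreted, laminin-like ligands. Ntn1 (ENSMUSG00000020902, chromosome 11, 68209364 to 68400823, minus strand, GRCm38) encodes netrin-1, the ligand of DCC and the UNC5 receptors. It stood at 407, 277 and 292 CPM with the PDGF-B label and at 100.1, 70.4 and 77.8 CPM with the EGFRvIII label. All gliomas of the first group were above all of the second. The means were 325 ± 71.2 and 82.8 ± 15.4 CPM (SD, n = 3 each), a log2 fold change of 1.97 ± 0.23 (limma adjusted p = 0.0218), or 3.91-fold. PDGF-B replicate 3 did not stand apart from its group for this gene. Ntn4, a netrin of basement membranes, stood at 54.1, 64.8 and 58.6 CPM against 47.9, 48.5 and 31.8 CPM. Its groups did not overlap either, with a log2 fold change of 0.49 ± 0.21, and it did not pass the limma test (adjusted p = 0.309).

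Among the netrin receptors no gene passed the test between the glioma groups. Unc5c, a repulsive netrin receptor and the most abundant of them per kb, stood at 120.0, 102 and 81.9 CPM against 110.4, 94.0 and 89.3 CPM, and the groups overlapped. Its log2 fold change was 0.04 ± 0.20 (limma adjusted p = 0.931), and it turned to -0.090 without PDGF-B replicate 1 and to -0.02 without EGFRvIII replicate 3. Dcc ranged from 22.6 to 38.4 CPM over the 6 gliomas, Unc5a from 3.95 to 14.2, Unc5b from 3.23 to 9.49 and Unc5d from 0.201 to 7.77 CPM. In each of these 4 genes the glioma groups overlapped.

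Plexins are the semaphorin receptors, and each of the 3 class B plexins separated the glioma groups. Plxnb3 (ENSMUSG00000031385, chromosome X, 73757090 to 73772514, plus strand) encodes the receptor of Sema5a. It stood at 211, 202 and 168 CPM with the PDGF-B label and at 29.0, 26.9 and 77.5 CPM with the EGFRvIII label. The lowest value of the first group was above the highest of the second, which came from EGFRvIII replicate 3. The means of 194 ± 23.0 and 44.5 ± 28.6 CPM (SD, n = 3 each) gave a log2 fold change of 2.29 ± 0.40 (limma adjusted p = 0.0323), or 4.91-fold. Plxnb1 (ENSMUSG00000053646, chromosome 9, 109095389 to 109119917, plus strand) encodes the receptor of Sema4d. Its values were 182, 241 and 138 CPM against 64.5, 66.3 and 85.8 CPM, again without overlap. The means of 187 ± 51.7 and 72.2 ± 11.8 CPM (SD, n = 3 each) gave a log2 fold change of 1.35 ± 0.24 (limma adjusted p = 0.0351), or 2.54-fold. An antisense gene, Gm7628, shares 257 exon bases with Plxnb1, or 2.68% of its exon length, and whether counting used the strand is not stated in the labels.

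The windows around the start sites of the plexin genes that rose are shown with those of Sema3d and Efnb2, which were called against the culture in opposite directions, at an adjusted p of 0.05 under every alternative fit. RefSeq promoter windows (GRCm38.p6, 250 bases before to 50 after a start site) matched 50 of the 60 members. Capitals mark the SOX-type motifs ACAAAG and ACAATG on either strand (CTTTGT and CATTGT when read from the other strand), core letters bound by SOX factors.
Plxnb3, chrX:73756853-73757152, plus strand: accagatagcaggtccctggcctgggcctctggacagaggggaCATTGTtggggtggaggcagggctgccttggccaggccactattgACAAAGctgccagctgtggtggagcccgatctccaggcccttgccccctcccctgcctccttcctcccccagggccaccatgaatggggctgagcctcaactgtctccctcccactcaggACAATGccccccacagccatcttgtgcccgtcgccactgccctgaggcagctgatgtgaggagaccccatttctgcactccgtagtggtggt
Plxnb1, chr9:109095186-109095485, plus strand: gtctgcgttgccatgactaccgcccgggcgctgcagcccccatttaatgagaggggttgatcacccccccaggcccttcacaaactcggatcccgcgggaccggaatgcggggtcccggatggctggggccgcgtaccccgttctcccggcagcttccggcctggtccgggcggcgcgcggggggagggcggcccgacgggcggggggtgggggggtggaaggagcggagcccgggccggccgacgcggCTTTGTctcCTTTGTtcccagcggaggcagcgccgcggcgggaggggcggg
Sema3d, chr5:12382916-12383215, plus strand: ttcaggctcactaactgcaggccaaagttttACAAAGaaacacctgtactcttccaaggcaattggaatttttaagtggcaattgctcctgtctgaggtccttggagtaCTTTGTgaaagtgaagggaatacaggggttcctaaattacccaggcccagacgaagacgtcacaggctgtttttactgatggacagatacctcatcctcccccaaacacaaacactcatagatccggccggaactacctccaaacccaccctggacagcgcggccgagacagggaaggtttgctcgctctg
Efnb2, chr8:8661193-8661492, minus strand: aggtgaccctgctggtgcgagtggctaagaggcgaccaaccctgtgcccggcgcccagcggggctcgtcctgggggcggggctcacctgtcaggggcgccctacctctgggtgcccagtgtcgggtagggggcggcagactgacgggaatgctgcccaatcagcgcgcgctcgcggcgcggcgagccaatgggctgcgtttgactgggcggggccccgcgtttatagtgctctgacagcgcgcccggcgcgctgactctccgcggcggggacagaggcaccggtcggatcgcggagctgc

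Plxnb3 holds 3 of these motifs, Plxnb1 and Sema3d hold 2 each, and the Efnb2 window holds 0. Other members called against the culture did not split by direction. Sema5a, Sema7a, Sema6b, Unc5c and Robo1 were higher and held 0 in their first windows, while Sema4d was higher and held 1. Ephb1 was lower and held 1, while Efna5, Sema4b and Ephb2 were lower and held 0. Taking the first window listed for each member, 14 of 50, or 28.0%, held a SOX-type motif, beside 28.6% of 32851 RefSeq windows of the same length. Over all 65 windows listed for these members, 16, or 24.6%, held one. The GC box GGGCGG, searched on both strands, was in 70.0% of the first windows of the members and in 35.7% of all windows, while the E-box CANNTG was in 46.0% and 72.3%. The median GC content was 64.7% in these member windows and 52.7% in all. These matches describe letters and were not tested for binding.

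Plxnb2, a plexin of microglia and of proliferating progenitors, ran the other way from its B-class relatives. It stood at 135, 143 and 197 CPM with the PDGF-B label and at 201, 299 and 291 CPM with the EGFRvIII label. The groups did not overlap, but the gap between PDGF-B replicate 3 and EGFRvIII replicate 1 was narrow, and the log2 fold change of -0.73 ± 0.24 did not pass the limma test (adjusted p = 0.178). The summed microglia markers also separated the glioma groups and were lowest in the culture. Plxnb2 stood at 242 CPM in the culture, above all 3 gliomas labelled PDGF-B. The part of microglia in the Plxnb2 values was not tested. Plxna3, which lies 557 kb from Plxnb3 on chromosome X, stood at 84.5, 87.9 and 79.6 CPM against 46.7, 20.1 and 62.3 CPM. Its log2 fold change of 1.11 ± 0.39 did not pass (limma adjusted p = 0.210). The groups overlapped for the other 5 plexins, Plxna1, Plxna2, Plxna4, Plxnc1 and Plxnd1, with log2 fold changes from -0.39 to 0.81.

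Neuropilins bind class 3 semaphorins and vascular endothelial growth factor. Nrp1 (ENSMUSG00000025810, chromosome 8, 128358604 to 128503363, plus strand) stood at 3.50, 4.27 and 22.9 CPM with the PDGF-B label and at 57.9, 45.1 and 36.8 CPM with the EGFRvIII label. The groups did not overlap, and PDGF-B replicate 3 held the highest value of its group by far. The log2 fold change was -2.70 ± 0.67 (limma adjusted p = 0.0855) and did not pass, while without PDGF-B replicate 3 it was -3.55 ± 0.28 (limma adjusted p = 0.00192). Nrp2 showed the same order, with 16.3, 23.0 and 44.0 CPM against 51.8, 73.8 and 57.5 CPM. Its log2 fold change was -1.24 ± 0.36 (limma adjusted p = 0.132), and -1.64 ± 0.26 without PDGF-B replicate 3 (limma adjusted p = 0.0138). The summed microglia markers ordered the groups and placed PDGF-B replicate 3 in the same way. So did the summed level of 10 endothelial markers, at 12.4 to 24.8 CPM against 29.3 to 48.7 CPM. In the culture the endothelial sum was 31.1 CPM, although Cldn5, Cdh5 and Tie1 were at 0 there. The microglia sum was 22.8 CPM there, while Nrp1 at 14.2 CPM and Nrp2 at 25.4 CPM stood above PDGF-B replicates 1 and 2. Of the most abundant endothelial markers, Eng stood at 1.02, 1.49 and 3.50 CPM against 6.91, 20.7 and 11.2 CPM, and Flt1 at 1.19, 5.45 and 14.2 CPM against 4.70, 7.65 and 14.8 CPM. The part of these cells in the neuropilin values was not tested.

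The secreted class 3 semaphorins held the most abundant guidance gene per kb over the 6 gliomas, and none passed the test with all 6 gliomas. Sema3d (ENSMUSG00000040254, chromosome 5, 12383385 to 12588948, plus strand), a repulsive ligand, stood at 729, 659.7 and 241 CPM with the PDGF-B label and at 211, 167 and 171 CPM with the EGFRvIII label. Replicate 3 of the first group lay just above the second group, so the groups did not overlap by a small margin. The log2 fold change was 1.42 ± 0.42 (limma adjusted p = 0.136), and 1.93 ± 0.22 without PDGF-B replicate 3 (limma adjusted p = 0.00410). Sema3a, the classical collapse-inducing ligand of neuropilin-1, ran the opposite way at 0.816, 1.91 and 16.6 CPM against 25.0, 25.3 and 31.9 CPM. Its groups did not overlap, and its log2 fold change of -3.16 ± 0.97 (limma adjusted p = 0.152) became -4.38 ± 0.41 without PDGF-B replicate 3 (limma adjusted p = 0.00273). Sema3d and Sema3a lie 536 kb apart on chromosome 5, with Sema3e beyond them. Sema3e ranged from 0.837 to 1.88 CPM in the gliomas, and Sema3b, Sema3c and Sema3f stayed under 4 CPM in every glioma.

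Of the 13 membrane semaphorins, 11 had a log2 fold change above 0 and none passed the test. Sema5a, a ligand of plexin-B3, stood at 137, 197 and 67.8 CPM with the PDGF-B label and at 36.5, 27.6 and 52.6 CPM with the EGFRvIII label. The groups did not overlap, with a log2 fold change of 1.70 ± 0.41 (limma adjusted p = 0.0800), and of 2.13 ± 0.32 without PDGF-B replicate 3 (limma adjusted p = 0.0117). Sema4d, the ligand of plexin-B1, was lower with the PDGF-B label, at 24.9, 27.9 and 34.9 CPM against 47.9, 47.3 and 68.1 CPM. It did not pass at a log2 fold change of -0.89 ± 0.22 (limma adjusted p = 0.0861), although the groups did not overlap. The summed microglia markers separated the groups in the same direction, at 9627, 20301 and 9051 CPM in EGFRvIII replicates 1 to 3. The part of microglia in the Sema4d values was not tested. The ligand and receptor of each pair thus stood differently: Sema5a and Plxnb3 were both higher in the gliomas labelled PDGF-B, while Sema4d was lower and Plxnb1 higher. Sema6a, a transmembrane ligand of class A plexins and the most abundant membrane semaphorin per kb over the 6 gliomas, stood at 183, 178 and 162 CPM against 153, 97.4 and 194 CPM, and the groups overlapped (log2 fold change 0.29 ± 0.26, limma adjusted p = 0.603). Among the others, Sema5b at 110.3 to 173 CPM against 51.0 to 99.4 CPM, Sema6d at 193 to 199.8 CPM against 89.3 to 177 CPM and Sema4c at 29.0 to 31.7 CPM against 33.9 to 51.5 CPM did not overlap between the groups.

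**Figure D2:**
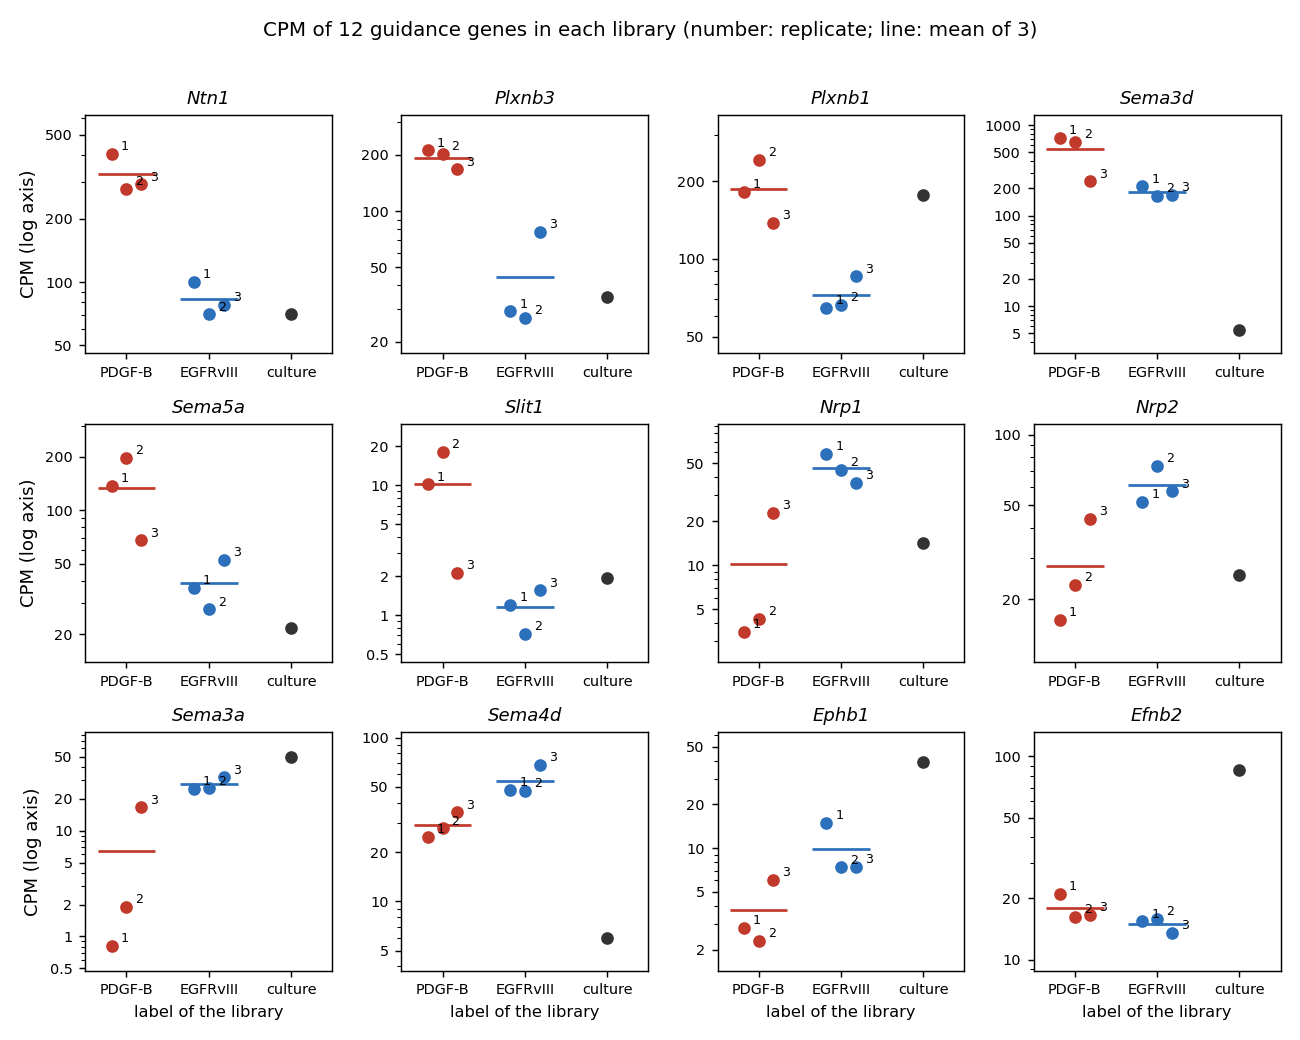
CPM (log axis, a scale of its own in each panel) of 12 guidance genes in the libraries labelled PDGF-B (red) and EGFRvIII (blue) and in the culture (black). Each point is 1 library, numbers are replicates and lines are means of 3 gliomas. For Nrp1, Sema3a, Sema3d and Slit1, PDGF-B replicate 3 lies between the other gliomas of its label and the gliomas labelled EGFRvIII, while for Ntn1 it lies within its group.

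None of the 18 ephrins and Eph receptors passed the test between the glioma groups with all 6 gliomas. Their log2 fold changes ran from -1.50 for Efna5 to 0.96 for Ephb4, both read from few counts, and the groups did not overlap for Efna2 and Efnb2, higher with the PDGF-B label, and for Efna5 and Ephb1, lower. Epha4 (ENSMUSG00000026235, chromosome 1, 77367185 to 77515088, minus strand), a receptor that binds ephrins of both classes, stood at 13.2, 15.3 and 8.37 CPM with the PDGF-B label and at 24.5, 7.62 and 6.03 CPM with the EGFRvIII label. The groups overlapped, since EGFRvIII replicate 1 was the highest and its group mates the lowest of the 6. The log2 fold change of 0.19 ± 0.54 (limma adjusted p = 0.867) turned to -0.03 without EGFRvIII replicate 2 and to -0.20 without EGFRvIII replicate 3. Epha5, the EphA receptor of highest level per kb, had the same wide spread, with 45.8, 60.7 and 19.0 CPM against 46.8, 19.3 and 20.8 CPM (limma adjusted p = 0.640). Epha2 stood at 1.43, 1.36 and 7.51 CPM against 8.43, 9.09 and 3.98 CPM and overlapped through PDGF-B replicate 3. Without that library its log2 fold change was -2.23 ± 0.46 (limma adjusted p = 0.0367).

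Among the EphB receptors, Ephb1 stood at 2.83, 2.30 and 6.05 CPM with the PDGF-B label and at 15.0, 7.38 and 7.41 CPM with the EGFRvIII label. The groups did not overlap. Its log2 fold change was -1.44 ± 0.47 (limma adjusted p = 0.176), and -1.85 ± 0.42 without PDGF-B replicate 3 (limma adjusted p = 0.0495). Ephb3, the EphB receptor of highest level per kb, stood at 48.2, 50.4 and 38.6 CPM against 41.9, 40.1 and 40.5 CPM (log2 fold change 0.15 ± 0.17, limma adjusted p = 0.668). The ephrin ligands of highest level per kb were Efna2 and Efnb3. Efna2 stood at 17.4, 20.4 and 19.3 CPM against 16.4, 16.9 and 16.0 CPM, without overlap, a log2 fold change of 0.21 ± 0.19 (limma adjusted p = 0.598). Efnb3 varied more, at 32.1, 35.3 and 25.7 CPM against 16.5, 29.6 and 32.6 CPM, and the groups overlapped. Its log2 fold change of 0.29 ± 0.29 (limma adjusted p = 0.638) turned to -0.014 without EGFRvIII replicate 1.

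The Slit ligands ran in opposite directions, and neither passed the test. Slit1 stood at 10.2, 18.2 and 2.13 CPM with the PDGF-B label and at 1.20, 0.717 and 1.55 CPM with the EGFRvIII label. The groups did not overlap, but PDGF-B replicate 3 was close to the second group. Its log2 fold change was 2.67 ± 0.77 (limma adjusted p = 0.130), and 3.56 ± 0.48 without PDGF-B replicate 3 (limma adjusted p = 0.00744). Per kb, Slit2 was the more abundant of the pair with the EGFRvIII label but not with the PDGF-B label or in the culture. In CPM, without division by exon length, Slit2 was above Slit1 there too. The means with the PDGF-B label were 16.9 and 10.2 CPM, and the culture held 3.10 and 1.94 CPM. Slit2 stood at 22.5, 24.4 and 3.81 CPM against 38.5, 22.8 and 38.8 CPM. The low value in PDGF-B replicate 3 set most of its log2 fold change of -1.34 ± 0.69 (limma adjusted p = 0.381), which was -0.47 ± 0.30 without that library (limma adjusted p = 0.403). Robo1, the Robo receptor of highest level per kb, stood at 91.3, 98.3 and 67.9 CPM against 86.5, 30.2 and 35.7 CPM and overlapped through EGFRvIII replicate 1 (log2 fold change 0.90 ± 0.40, limma adjusted p = 0.312). Robo2 had its lowest values, 8.07 and 15.8 CPM, in the same 2 gliomas as Robo1, beside 30.02 to 42.0 CPM in the other 4, and the 2 genes lie 846 kb apart on chromosome 16.

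**Figure D3:**
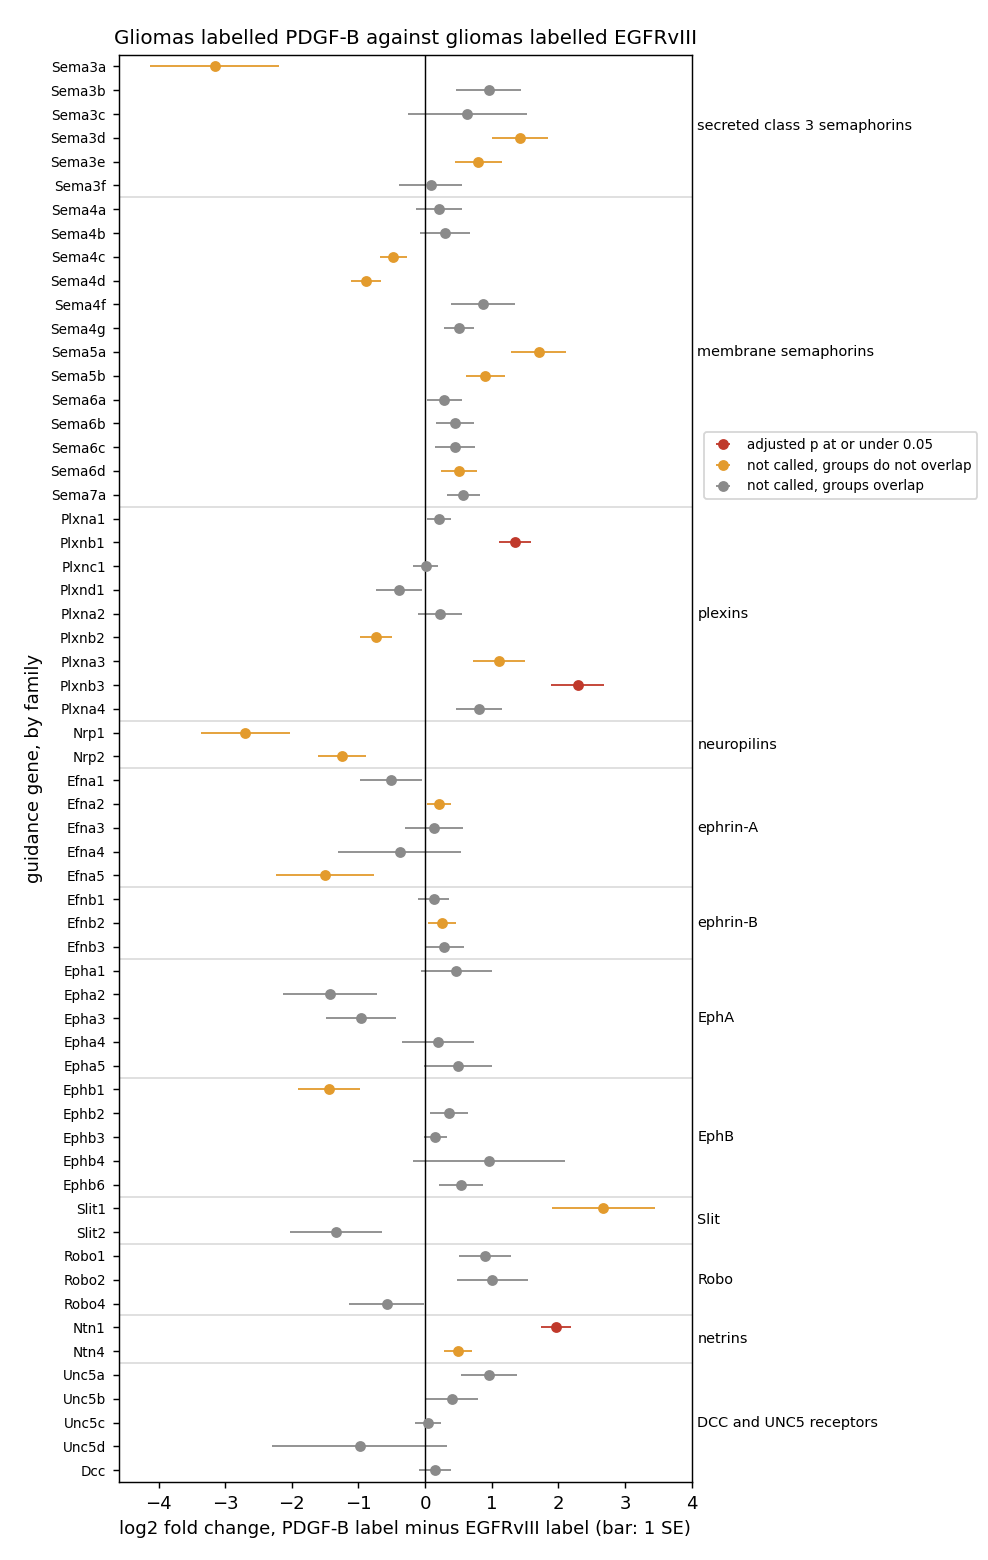
Log2 fold change (PDGF-B label minus EGFRvIII label) with 1 SE for the 60 guidance genes, by family. Red points mark the 3 genes called by limma, orange points the other genes whose glioma groups did not overlap, and grey points the rest. Ntn1, Plxnb3 and Plxnb1 are the red points, all to the right of 0, and Sema3a, Nrp1 and Slit1 lie farther out than Plxnb3 but with wide bars.

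The second question is how the gliomas differ from the progenitor culture. Semaphorins of several classes, Plxna4 and Unc5c were higher in the gliomas of both labels than in the culture, and Efnb2 was lower. The 3 calls of lower level in the gliomas labelled PDGF-B were Efnb2, Ephb1 and Efna5. Of these only the Efnb2 call held with any glioma left out, and Efna5 was read from few counts. Ephb3, Ephb6, Efna1, Efna2 and Efnb3 were higher in all 6 gliomas than in the culture, without passing the test. These comparisons have 1 culture library, whose spread limma assumed to be that of the gliomas, and they share that library, so their values are given side by side. The gliomas labelled EGFRvIII were the ones with Pdgfb near the culture's level. Against the culture, limma called 13 members in the gliomas labelled PDGF-B, or 21.7%, beside 9.45% of all genes. Of these 10 were higher, beside 7.73% of all genes, and 3 lower, beside 1.73%. In the gliomas labelled EGFRvIII it called 10 members, or 16.7%, beside 9.55% of all genes, with 6 higher beside 8.20% and 4 lower beside 1.34%. The member medians were 0.18 and 0.09 on the log2 scale, beside 0.04 and 0.01 over all genes. The first became 0.32 and 0.34 without PDGF-B replicate 1 or 3, and 0.50 for the members with at least 1 CPM in at least 3 libraries. The second turned to -0.01 and -0.11 without EGFRvIII replicate 2 or 3. With libraries shifted to the same median it was -0.12, but the median over all genes moved along with it, to -0.20. The culture lay outside the range of all 6 gliomas for 44 members, or 73.3%, beside 51.9% of all genes, with 22 above, beside 24.0% of all genes, and 22 below, beside 27.8%.

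Leaving out single gliomas moved these counts. Against the culture the calls of the gliomas labelled PDGF-B became 7 without PDGF-B replicate 1 and 23 without PDGF-B replicate 3, and stayed between 9 and 15 otherwise. Over all genes the same fits called 854 and 2303, beside 1647 with all gliomas. Those of the gliomas labelled EGFRvIII became 5 without PDGF-B replicate 1, 17 without PDGF-B replicate 3 and 5 without EGFRvIII replicate 3, while all genes gave 1251, 2030 and 1058, beside 1663. The calls of Sema3d, Sema4d, Sema7a, Unc5c and Efnb2 in both comparisons, and of Ntn1 and Plxna4 in the gliomas labelled PDGF-B, held in all 6 of these fits.

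Among the ligands, Sema3d had the largest rise of any guidance gene over the culture, where it stood at 5.38 CPM beside 167 to 729 CPM in the gliomas. All 6 gliomas were far above the culture. The log2 fold changes were 6.48 ± 0.58 for the PDGF-B label (limma adjusted p = 0.00190) and 5.06 ± 0.58 for the EGFRvIII label (limma adjusted p = 0.00241), or 89.6-fold and 33.4-fold. Sema7a, a membrane-anchored semaphorin that signals through integrins and plexin-C1, stood at 8.71 CPM in the culture beside 30.1 to 65.8 CPM in the gliomas. Its log2 fold changes were 2.63 ± 0.36 and 2.05 ± 0.36 (limma adjusted p = 0.00652 and 0.0130). Sema4d rose from 5.96 CPM to between 24.9 and 68.1 CPM, with log2 fold changes of 2.27 ± 0.32 and 3.16 ± 0.32 (limma adjusted p = 0.00713 and 0.00151). The summed microglia markers were 22.8 CPM in the culture and at least 630 CPM in every glioma, and their part in the Sema4d values was not tested.

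Sema6b, a ligand of class A plexins, stood at 5.88 CPM in the culture beside 19.0 to 39.5 CPM, with log2 fold changes of 2.26 ± 0.41 and 1.81 ± 0.41 (limma adjusted p = 0.0166 and 0.0334). The call in the gliomas labelled PDGF-B was lost without PDGF-B replicate 1 (adjusted p = 0.0534), and that in the gliomas labelled EGFRvIII held in 2 of 6 such fits (highest adjusted p = 0.0866). Sema5a stood at 21.8 CPM in the culture and rose in the gliomas labelled PDGF-B (log2 fold change 2.49 ± 0.59, limma adjusted p = 0.0413), a call that held in 1 of 6 fits with a glioma left out, the fit without PDGF-B replicate 3. In those labelled EGFRvIII its log2 fold change was 0.79 ± 0.59 (limma adjusted p = 0.474). Sema4b, a membrane semaphorin of class 4, stood at 48.5 CPM in the culture and at 7.26 to 20.05 CPM in the gliomas. It fell in the gliomas labelled EGFRvIII, by 2.10 on the log2 scale (SE 0.51, limma adjusted p = 0.0457), a call that held in 1 of 6 such fits. In those labelled PDGF-B its log2 fold change was -1.80 ± 0.51 (limma adjusted p = 0.0721).

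Ntn1 stood at 70.1 CPM in the culture, just under the gliomas labelled EGFRvIII and far under those labelled PDGF-B. Its log2 fold change was 2.19 ± 0.32 for the PDGF-B label (limma adjusted p = 0.00753) and 0.22 ± 0.32 for the EGFRvIII label (limma adjusted p = 0.734). The netrin receptor gene Unc5c stood at 26.7 CPM in the culture beside 81.9 to 120.0 CPM in the gliomas. It rose by nearly equal amounts, with log2 fold changes of 1.91 ± 0.28 and 1.87 ± 0.28 (limma adjusted p = 0.00768 and 0.00642). Robo1 stood at 13.2 CPM in the culture, below all 6 gliomas, and rose in those labelled PDGF-B (log2 fold change 2.67 ± 0.56, limma adjusted p = 0.0280), a call lost without PDGF-B replicate 1 or 2 or EGFRvIII replicate 3 (highest adjusted p = 0.0723). In those labelled EGFRvIII it did not pass (log2 fold change 1.77 ± 0.56, limma adjusted p = 0.1001). Robo2 was at 88.8 CPM in the culture and lower in all 6 gliomas, and did not pass in either comparison (log2 fold changes -1.36 ± 0.74 and -2.37 ± 0.74).

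Among the plexins, Plxna4, a receptor of class 3 and class 6 semaphorins, stood at 8.80 CPM in the culture and at 25.0 to 81.0 CPM in the gliomas. Its log2 fold changes were 2.85 ± 0.49 and 2.04 ± 0.49 (limma adjusted p = 0.0145 and 0.0443), the second held in 2 of 6 fits with a glioma left out (highest adjusted p = 0.110). Plxnb3 stood at 34.5 CPM in the culture, within the range of the gliomas labelled EGFRvIII. It rose in those labelled PDGF-B (log2 fold change 2.48 ± 0.56, limma adjusted p = 0.0363), a call lost without PDGF-B replicate 1 or 2 or EGFRvIII replicate 1 (highest adjusted p = 0.0901). For the EGFRvIII label it was 0.19 ± 0.56 (limma adjusted p = 0.885). Plxnb1 was placed differently, since the culture at 176 CPM lay within the gliomas labelled PDGF-B, with log2 fold changes of 0.05 ± 0.34 and -1.30 ± 0.34 (limma adjusted p = 0.940 and 0.0610). The sign of the former turned to -0.032 with libraries shifted to the same median and to -0.15 without PDGF-B replicate 2. Plxna1, a class A plexin that can pair with neuropilin-1 for Sema3a, stood at 171 CPM in the culture and at 71.6 to 105 CPM in the gliomas. It fell by 1.06 on the log2 scale in those labelled EGFRvIII (SE 0.25, limma adjusted p = 0.0420), a call that held in 2 of 6 such fits, and an antisense gene, Gm26811, shares 10.7% of its exon bases. The neuropilins did not pass, and the culture, at 14.2 CPM for Nrp1 and 25.4 CPM for Nrp2, lay within the range of the gliomas labelled PDGF-B.

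Efnb2 (ENSMUSG00000001300, chromosome 8, 8617434 to 8661242, minus strand), a ligand of EphB receptors and of Epha4 that also marks arterial vessels, stood at 85.6 CPM in the culture. The gliomas held 13.5 to 21.1 CPM, all far below it. Efnb2 fell by 2.26 on the log2 scale in the gliomas labelled PDGF-B (SE 0.28, limma adjusted p = 0.00470) and by 2.52 in those labelled EGFRvIII (SE 0.28, limma adjusted p = 0.00218), or 4.79-fold and 5.72-fold. Its receptor gene Ephb1 stood at 39.02 CPM in the culture and at 2.30 to 15.0 CPM in the gliomas. It fell by 3.50 in the gliomas labelled PDGF-B (SE 0.65, limma adjusted p = 0.0192), a call lost without PDGF-B replicate 1 (adjusted p = 0.0519), and had a log2 fold change of -2.05 ± 0.65 in those labelled EGFRvIII (limma adjusted p = 0.101). Ephb2, another EphB receptor, stood at 93.8 CPM in the culture and at 23.6 to 54.9 CPM in the gliomas. It fell by 1.65 in the gliomas labelled EGFRvIII (SE 0.40, limma adjusted p = 0.0458), a call that held in 2 of 6 fits with a glioma left out, and had a log2 fold change of -1.30 ± 0.40 in those labelled PDGF-B (limma adjusted p = 0.0896).

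Efna5, a glycolipid-anchored ephrin named after its values were seen, was the remaining call, at 108 reads in the culture and 4, 0 and 5 reads in the gliomas labelled PDGF-B. At so few reads its fitted fold change depends on the prior count (limma adjusted p = 0.0302), and the call was lost without PDGF-B replicate 1 or 2 (highest adjusted p = 0.0627). Epha4 stood at 42.6 CPM in the culture, above all 6 gliomas, and its log2 fold changes of -1.83 ± 0.75 and -2.03 ± 0.75 did not pass (limma adjusted p = 0.171 and 0.155). Efnb1, Efna3, Efna4, Epha2, Epha5 and Ephb4 were likewise above all 6 gliomas in the culture and did not pass. Ephb3, Ephb6, Efna1, Efna2 and Efnb3 were below all 6 gliomas there and did not pass. The summed level of 12 markers of neural stem cells and radial glia was 8721 CPM in the culture and 1167 to 3103 CPM in the gliomas, with Vim at 2693 CPM and Fabp7 at 3100 CPM there. That of the oligodendrocyte precursor markers was 5903 CPM in the culture and 10412 to 24489 CPM in the gliomas, with Pdgfra at 408 CPM there and at 1402 to 4797 CPM in the gliomas. The part of these cell states in the differences from the culture was not tested.

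**Figure D4:**
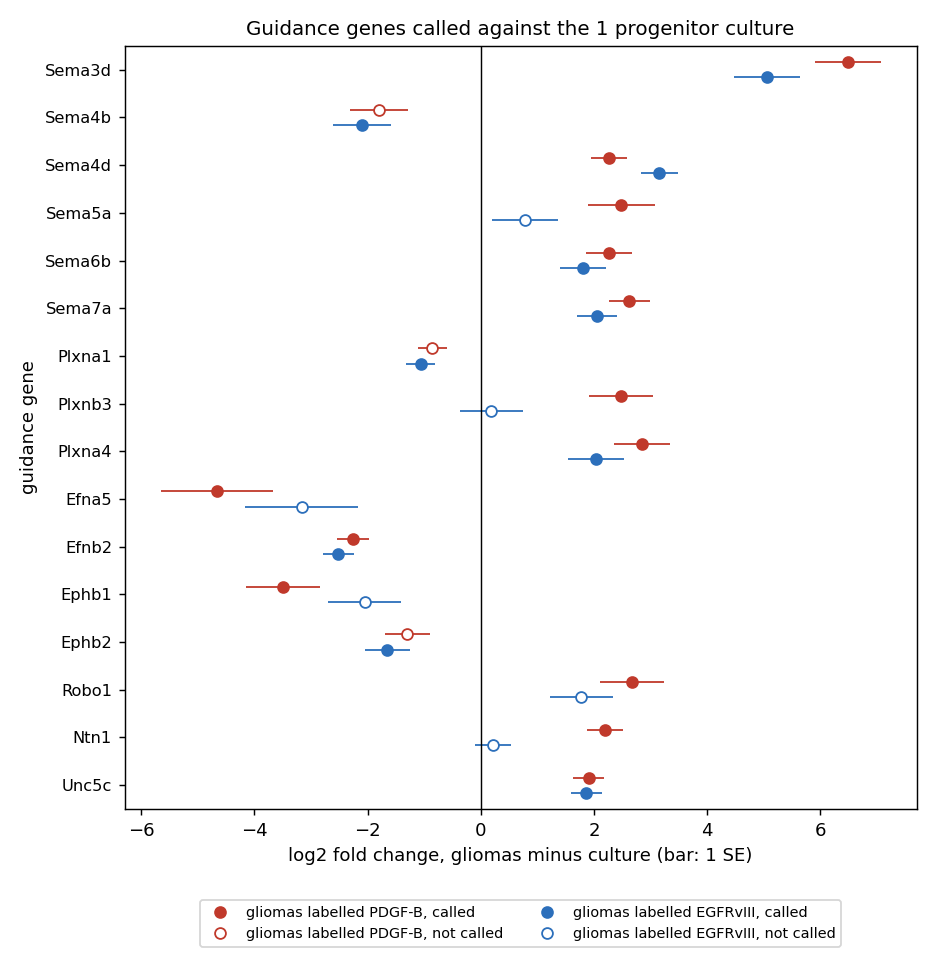
Log2 fold change (gliomas minus culture) with 1 SE for the 16 guidance genes called in either comparison, with the gliomas labelled PDGF-B in red and those labelled EGFRvIII in blue. Filled points were called by limma and open points were not. Sema3d lies farthest to the right and Efna5 farthest to the left, while Ntn1, Plxnb3, Sema5a and Robo1 are filled for the PDGF-B label and open for the EGFRvIII label.

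Genes downstream of or beside these families were read from 2 lists. Of 46 effectors inside the cell, such as collapsin response mediators and kinases, 0 rose and 1 fell between the glioma groups. Their median log2 fold change was 0.04, and 10 had an unadjusted limma p under 0.05. Of all genes, 0.717% rose, 2.63% fell and 16.7% had such an unadjusted limma p. The effector that fell was Fes, a tyrosine kinase bound by plexin-A1 that is also expressed in myeloid cells. It stood at 2.91, 3.97 and 13.5 CPM with the PDGF-B label and at 41.5, 33.7 and 50.6 CPM in those labelled EGFRvIII, without overlap. It fell by 2.93 on the log2 scale (SE 0.54, limma adjusted p = 0.0376), and the call held without PDGF-B replicate 3 only (highest adjusted p over the fits without a glioma 0.142). Fes stood at 0.145 CPM in the culture. The summed microglia markers were also lowest in the culture and higher with the EGFRvIII label, at 9627, 20301 and 9051 CPM in its replicates 1 to 3. The part of microglia in the Fes values was not tested.

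Against the culture 2 effectors rose and 2 fell in each comparison, with medians of -0.12 and -0.06. Of all genes, 7.73% rose and 1.73% fell for the PDGF-B label, and 8.20% and 1.34% for the EGFRvIII label. Fes rose in both, from 5 reads in the culture (log2 fold changes 4.75 ± 0.79 and 7.68 ± 0.79, limma adjusted p = 0.0126 and 0.00160), and so did Pak1. Pak1, a kinase activated by Rac and Cdc42, stood at 57.2 CPM in the culture and at 117 to 167 CPM in the gliomas (log2 fold changes 1.19 ± 0.29 and 1.28 ± 0.29, limma adjusted p = 0.0480 and 0.0374). Mical2, an actin-oxidising enzyme, stood at 35.1 CPM in the culture and fell by 2.98 in the gliomas labelled PDGF-B (SE 0.67, limma adjusted p = 0.0353). Dpysl5, a collapsin response mediator, stood at 51.6 CPM in the culture and fell by 3.72 in those labelled EGFRvIII (SE 0.80, limma adjusted p = 0.0288). With a glioma left out, the calls of Pak1 held in 2 of 6 fits in each comparison, and those of Mical2 and Dpysl5 in 3 of 6 (highest adjusted p-values 0.132, 0.0734, 0.0851 and 0.0799). The remaining calls, outside the rule for named genes, were Vav3, which fell with the PDGF-B label, and Ptk2, the focal adhesion kinase, which fell with the EGFRvIII label.

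Of 39 other guidance ligands and receptors, 34 were measured, and 3 rose and 0 fell between the glioma groups (median log2 fold change 0.39). Of all genes, 0.717% rose and 2.63% fell. L1cam, an adhesion molecule of growing axons that lies between Plxnb3 and Plxna3 on chromosome X, stood at 25.6, 41.4 and 23.3 CPM with the PDGF-B label and at 2.01, 0.986 and 2.24 CPM with the EGFRvIII label. It rose 17.1-fold (log2 fold change 4.10 ± 0.40, limma adjusted p = 0.0163). Nrcam, a relative of L1cam that serves in semaphorin receptors, stood at 217, 272 and 189 CPM against 94.6, 92.4 and 76.8 CPM (log2 fold change 1.35 ± 0.20, limma adjusted p = 0.0257). Ntng2, a membrane-anchored netrin-G, stood at 18.7, 20.6 and 17.7 CPM against 5.05, 3.07 and 5.63 CPM (log2 fold change 2.08 ± 0.30, limma adjusted p = 0.0257). None of these 3 overlapped between the groups. Of the fits without a glioma, L1cam was called without PDGF-B replicate 3 or EGFRvIII replicate 2, and Nrcam and Ntng2 without PDGF-B replicate 3 only, with highest adjusted p-values of 0.0825, 0.102 and 0.102.

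Against the culture 8 of these 34 rose and 3 fell in the gliomas labelled PDGF-B, beside 7.73% and 1.73% of all genes. In those labelled EGFRvIII 5 rose and 3 fell, beside 8.20% and 1.34%. The medians were 0.26 and -0.02. Sdc3, a heparan sulphate proteoglycan, stood at 219 CPM in the culture and at 856 to 1496 CPM in the gliomas (log2 fold changes 2.51 ± 0.32 and 2.15 ± 0.32, limma adjusted p = 0.00503 and 0.00642). Cntn1, an adhesion molecule of axons and oligodendrocyte precursors, stood at 358 CPM there and at 1092 to 1744 CPM in the gliomas (log2 fold changes 2.11 ± 0.28 and 1.69 ± 0.28, limma adjusted p = 0.00586 and 0.0101). Flrt1, a ligand of Unc5 receptors and latrophilins, stood at 2.32 CPM there and at 9.45 to 52.5 CPM in the gliomas (log2 fold changes 3.85 ± 0.53 and 2.42 ± 0.53, limma adjusted p = 0.00684 and 0.0315). Rgma, the repulsive ligand of neogenin, ran the other way, at 203 CPM in the culture and 31.2 to 76.6 CPM in the gliomas. It fell by 1.76 and 2.64 on the log2 scale (SE 0.28 each, limma adjusted p = 0.0103 and 0.00169). The other genes that fell in both comparisons were Draxin, a secreted netrin antagonist, and Ptprf, a receptor phosphatase, named after their values were seen.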

How the data were processed

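Per the file headers, 6 of the deposited tables hold log2 CPM (reads scaled to library size, on a log2 scale). That of EGFRvIII replicate 3 has no unit in its header but shares the floor of the others. STAR, edgeR and mm10 are named without versions in the submitters' processing notes. Not given in the sources used here are the quantifier, scaling, gene filter and strand setting, and whether poly(A) selection or rRNA depletion was used, since the labels describe them as options. All libraries share a lowest value of -4.12, which stands for 0 reads plus a prior of 2 counts. In the low range every value was a whole multiple of 0.01 read within 0.001 read, so the values come from estimated counts. CPM here is the deposited value unlogged less that prior.

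Symbols and coordinates came from GENCODE M21 (GRCm38), with a symbol for 17254 IDs and none for 168. The deposited log2 values of all 17422 genes were tested with limma 3.58.1 in R 4.3.3 (trend and robust moderation, two-sided, Benjamini-Hochberg over all genes). Fold changes are on the log2 scale with the prior and understate the change of low genes. The glioma groups were compared over 6 libraries with 4 residual degrees of freedom, and each with the culture in a fit of 7 libraries in 3 groups, also with 4. The scripts were tested on simulated data. The members and gene lists were chosen with earlier results of these data known.

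The members named with all their values are Epha4, Nrp1 and Plxnb1, those called between the glioma groups, the most abundant of each family per kb, and the 6 uncalled members of smallest p. Also named are, of those called against the culture with at least 10 CPM, the 10 of largest change in each direction, and the highest and lowest in the culture. Each list gives its 3 called genes of smallest p in each comparison, and each cell type list its 2 most abundant. Other members are given in addition by their values. Alternatives covered scaling, prior or pseudocount, a minimum of 1 CPM in at least 3 libraries, voom weights, limma without trend and robust moderation, a stricter threshold, the libraries in the fit, a replicate block and leaving out each glioma.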

Additional observations from a re-analysis of the deposited data

How the results depend on the processing

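Between the glioma groups the 3 called members became 1 without trend and robust moderation and 0 at an adjusted p of 0.01, and leaving out a glioma gave 0 to 11. The 4 calls of the 2 guidance lists became 2 and 0 under those settings, and 0 to 8 without a glioma. Against the culture, the 13 member calls of the gliomas labelled PDGF-B became 7 with voom weights, 8 with only the 2 groups compared and 6 at an adjusted p of 0.01 (7 to 23 without a glioma). Their 15 list calls became 8, 7 and 6 (8 to 18). The 10 member calls of the gliomas labelled EGFRvIII became 6 with library totals, 5 with voom weights, 6 without trend and robust moderation and 4 at an adjusted p of 0.01 (5 to 17 without a glioma). Their 12 list calls became 3 at an adjusted p of 0.01 (6 to 15).

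With a glioma left out, the sign of 12 of the 60 members turned between the glioma groups: Epha4 (-0.20 to 0.81), Efnb3 (-0.014 to 0.48), Unc5c (-0.090 to 0.19), Dcc, Efna3, Efna4, Ephb4, Plxnc1, Sema3c, Sema3f, Sema4a and Sema4b. Against the culture 4 turned for the PDGF-B label, Plxnb1 (-0.15 to 0.25 without a glioma, and -0.032 at a common median), Nrp2, Epha1 and Epha3, and 5 for the EGFRvIII label, Ntn4, Plxnb2, Plxnb3, Sema3b and Unc5d. None of these was a call. The cause was not tested. Over all 17422 genes the glioma comparison called 583, and 4 to 1282 without a glioma. A common median moved its all-gene median to 0.13 and that of the gliomas labelled EGFRvIII against the culture to -0.20, and library totals moved that of the gliomas labelled PDGF-B to 0.15.

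The correlations of deviations from the group mean were 0.17, -0.036 and -0.080 for same-numbered gliomas. For gliomas of unlike number they ran from -0.25 to 0.21. With 3 gliomas per group, centred on their own mean, these values cannot decide whether replicate numbers pair the gliomas. With the replicate block, 0 members and 0 list genes were called, and 18 of all genes. No paired analysis was possible because the culture has no replicate number in the comparisons with it.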

Other observations

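Some members whose values are outside the comparisons above lie near each other. Efna1, Efna3 and Efna4 lie within 89271733 to 89338028 on chromosome 3 (GRCm38). In the culture they stood at 2.37, 4.29 and 3.21 CPM, and in the gliomas Efna1 ranged from 2.505 to 8.52, Efna3 from 0.791 to 2.09 and Efna4 from 0.0291 to 0.685 CPM. An antisense gene shares 10.5% of the exon bases of Efna4, and another 14.1% of those of Efna3. Ephb4, a receptor of ephrin-B2 best known from veins, stood at 6.69 CPM in the culture and at 0.0291, 0.242 and 1.99 CPM in the gliomas labelled PDGF-B. In those labelled EGFRvIII it stood at 0.115, 0.0598 and 0.2998 CPM, so that among the gliomas PDGF-B replicate 3 was nearest to the culture for this gene. Neither Ephb4 nor the 3 ephrin-A genes passed the limma test in any of the 3 comparisons.

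Summed marker levels of other cell types were nearer between the glioma groups than those of microglia. Myelinating oligodendrocyte markers summed to 867 to 1076 CPM with the PDGF-B label, 462 to 648 CPM with the EGFRvIII label and 216 CPM in the culture. Astrocyte markers summed to 1904 to 2489, 1425 to 1548 and 1825 CPM. For both lists the glioma groups did not overlap in these sums, although the median log2 fold change over the astrocyte markers was -0.21. Neuron markers summed to 1016 to 1369, 923 to 1412 and 1320 CPM, neuroblast markers to 583 to 734, 503 to 595 and 994 CPM, and mural and fibroblast markers to 8.61 to 22.4, 14.0 to 29.6 and 24.0 CPM. Mitosis genes summed to 1418, 192 and 1518 CPM in PDGF-B replicates 1 to 3, to 1012 to 1435 CPM with the EGFRvIII label and to 3901 CPM in the culture. Their part in the guidance genes' values was not tested.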
